A study of Mus musculus with 10 samples.

Results

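Bruch's membrane, the sheet of extracellular matrix under the retinal pigment epithelium (RPE), was followed here through 42 genes. They encode collagen IV and laminin chains and the proteins that link them, the collagen VIII chains, elastic fiber proteins, fibrillar and interstitial matrix proteins, matrix proteases with their inhibitors, and matricellular or heparan sulfate editing proteins. The genes were taken by name, with earlier results of these data known. Their symbols were matched to the 47729 genes of the deposited count table through the GENCODE M21 annotation, and 42 of the 42 were found.

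The libraries came from 5 CD1 mice, an albino outbred strain, at postnatal day 40. In each mouse 1 eye had received AAV Best1 GFP alone (control eye) and the other eye AAV Best1 Nrf2 together with AAV Best1 GFP (Nrf2 eye), which gave 5 control and 5 Nrf2 libraries paired by mouse. AAV is a viral vector, GFP is a fluorescent marker, and Nrf2 is the transcription factor that drives antioxidant and detoxifying genes through antioxidant response elements. The Best1 promoter, which drives both vectors, is a human promoter active in RPE cells, and the Nrf2 coding sequence is labelled as human. The Nrf2 eyes thus carried a second vector that the control eyes did not, so the delivered factor and the added vector cannot be told apart. The design asks what extra Nrf2 does to RPE of CD1 mice, and the comparison asks it here for matrix genes.

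Bruch's membrane lies between the RPE and the capillaries of the choroid. It is built of the basement membrane of the RPE, collagenous layers with an elastic layer between them, and the basement membrane of the capillaries. RPE cells, choroidal endothelium, pericytes and fibroblasts all make matrix of this region. The membrane thickens with age, and mutations in several of its genes, among them TIMP3 and EFEMP1, cause inherited macular disease.

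Library totals ran from 12298404 to 27310638 counts, and 3 counts corresponded to 0.110 to 0.244 CPM (counts scaled to a common library total) depending on the library. The 42 genes held 0.605% to 1.34% of all counts in a library. The row of Nfe2l2, the mouse gene for Nrf2, held 79.3 to 110 CPM in control eyes and 267 to 414 CPM in Nrf2 eyes, without overlap (log2 fold change 1.97, SE 0.12, adjusted p = 0.000299, edgeR). Transcripts of the mouse gene and of the vector cannot be told apart in that row. The RNA was labelled as RPE, and RPE markers were abundant, with a summed level of 12 genes of 23486 to 46468 CPM in control eyes and 12114 to 30770 CPM in Nrf2 eyes. That sum was lower in the Nrf2 eye of 5 of 5 mice, and 6 of the 12 genes fell, among them Rpe65. Best1, an RPE gene, was near 0 in every library, at 0.119 to 1.5 CPM. Of 10 markers of macrophages and microglia 8 rose in Nrf2 eyes, by 2.10 to 5.90 on the log2 scale. Their summed level, 158 to 279 CPM in control against 284 to 1398 CPM in Nrf2 eyes, was mostly Csf1r in control eyes, which held 196 CPM on average and 142 CPM in Nrf2 eyes and was not called. Rod markers summed to between 158 and 21020 CPM, with the highest levels in both eyes of mouse 2 (21020 CPM in the control eye and 8153 CPM in the Nrf2 eye), so results that changed without mouse 2 are given both ways. In bulk RNA, fewer cells of a type and less RNA per cell cannot be told apart.

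Of the 42 matrix genes, 4 passed an adjusted p of 0.05 between the eyes. Col8a2, Timp3 and Col4a3 fell and Sulf2 rose. The test was edgeR's quasi-likelihood test, blocked by mouse, and p was adjusted by Benjamini and Hochberg's method over 16362 genes. It called 6.33% of all genes tested, 3.60% higher and 2.73% lower, beside 9.52% of the matrix genes. At an unadjusted p under 0.05 there were 13 matrix genes, where 19.1% of all genes tested passed. The groups did not overlap for 3 matrix genes (6.28% of all genes tested), and 6 moved the same way in all 5 mice (3274 of the 16362 genes tested did). Over the 42 genes the median log2 fold change was 0.15, with 29 positive and 13 negative, against −0.01 over all genes tested. Without mouse 4 that median was −0.0025, without mouse 1 it was 0.34, and with rod markers as a covariate it was −0.10. DESeq2 with the same block called 10 of the 42, and 1812 genes in all (9.25% of those it tested), where edgeR called 1036. The 6 further genes by DESeq2 were Col4a4, Lama4, Nid2, Col8a1, Fbln5 and Htra1.

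**Figure D1:**
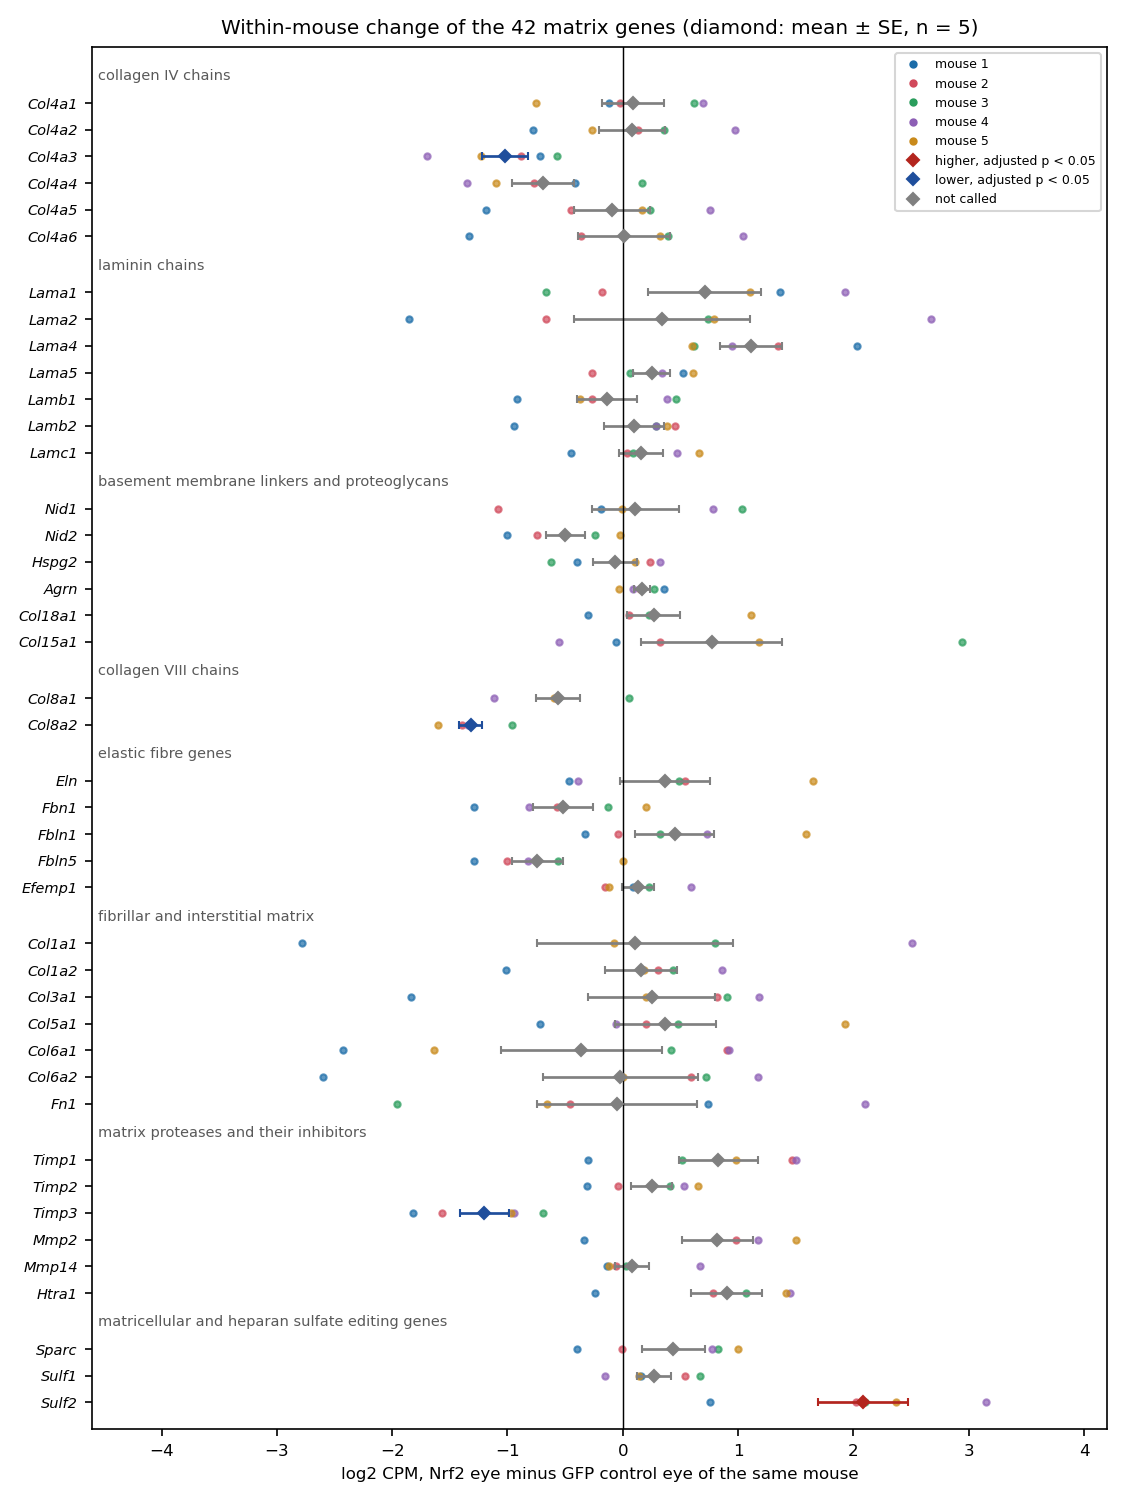
Each row is 1 of the 42 matrix genes, grouped by role. Small points give the log2 CPM of the Nrf2 eye minus that of the control eye in each of 5 mice, and diamonds with bars give their mean ± SE, colored where edgeR's adjusted p was under 0.05. Col4a3, Col8a2 and Timp3 lie below 0 and Sulf2 above 0 in all 5 mice, while most other genes spread across 0.

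Per length, Timp3, Timp2 and the collagen VIII chains stood highest in control eyes. Timp3 held 458 ± 95.6 CPM per kb of exons in control eyes (SD, n = 5) and Col8a2 held 411 ± 91.3, and these neighbors differed by less than their spread. Timp2, at 193 ± 31.7, and Col8a1, at 148 ± 38.6, followed, and their ranges of 1 SD also overlapped. Sparc (134), Efemp1 (86.1), Fbln1 (70.3), Col18a1 (57.9) and Htra1 (45.8 CPM per kb) came next. The fibrillar collagens were far lower, with 10.2 for Col1a1, 4.59 for Col1a2 and 2.74 CPM per kb for Col3a1. The lowest gene was Col15a1, at 0.0597 CPM per kb.

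**Figure D2:**
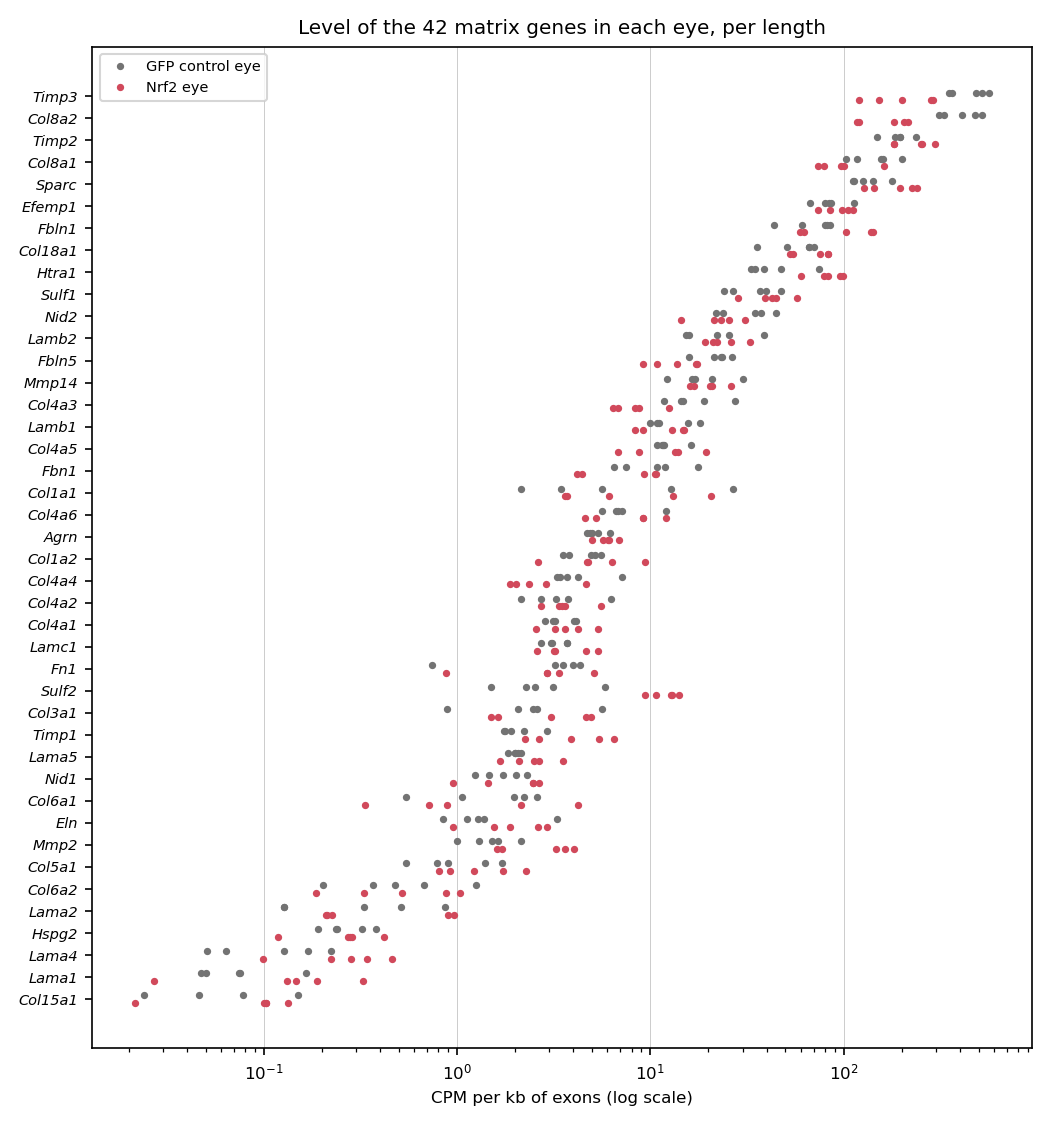
The level of each matrix gene is plotted in every library as CPM per kb of exons on a log axis, control and Nrf2 eyes in separate colors. Timp3, Col8a2, Timp2 and Col8a1 head the order in control eyes, and Col15a1, whose control library of mouse 3 held 0 counts and cannot be drawn on this axis, closes it.

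Timp3, Col8a1 and Col8a2 made up 57.8% to 64.3% of the summed CPM of the 42 genes in control eyes and 33.2% to 46.1% in Nrf2 eyes. The summed level of all 42 was 13408, 8981, 11309, 12703 and 8746 CPM in the control eyes of mice 1 to 5, and 6701, 6046, 9887, 10178 and 8229 CPM in their Nrf2 eyes. It was lower in the Nrf2 eye of every mouse, although the ranges overlapped. The other 39 genes together ran from 3494 to 5413 CPM in control eyes and from 3844 to 6136 CPM in Nrf2 eyes. Their sum was higher in the Nrf2 eye of 4 of 5 mice and lower in mouse 1 (5413 against 3844 CPM).

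The basement membrane genes numbered 19, the collagen IV chains, laminin chains and linkers, and 1 of them changed. Their median log2 fold change was 0.10, and the share called was 5.26%. Collagen IV is the network-forming collagen of basement membranes. Its chains pair by gene, since Col4a1 with Col4a2, Col4a3 with Col4a4 and Col4a5 with Col4a6 lie head to head in the genome, and the Col4a3, Col4a4 and Col4a5 chains assemble with one another.

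Col4a3 (ENSMUSG00000079465, GRCm38 chr1:82586921-82722059, plus strand) held 143, 117, 190, 272 and 147 CPM in the control eyes of mice 1 to 5. In the Nrf2 eyes it held 82.8, 64.2, 124, 87.3 and 67.8 CPM. Every mouse had less in the Nrf2 eye, but the groups overlapped, since mouse 3 had more in its Nrf2 eye than mouse 2 in its control eye. The log2 fold change was −1.02 (SE 0.20, adjusted p = 0.0149, edgeR). The call was lost without the mouse block (adjusted p = 0.0566), without mouse 2 (0.0505) and without mouse 5 (0.0541), at log2 fold changes of −1.03, −1.02 and −0.97. An antisense gene inside Col4a3, C430014B12Rik, held 0.349 to 1.85 CPM, against 64.2 to 272 CPM for Col4a3. In the same eyes the RPE markers Rpe65 (−2.88), Rgr (−2.87), Lrat (−2.26), Rlbp1 (−1.93) and Rdh5 (−1.42) fell further than Col4a3. Otx2 fell by less (−0.63) and 6 of the 12 RPE markers did not pass. The part of the RPE markers in the Col4a3 values was not tested.

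Col4a4, the neighbor of Col4a3, held 46.1 ± 16.8 CPM in control and 29.2 ± 11.9 CPM in Nrf2 eyes (SD, n = 5), and its log2 difference of −0.69 did not pass (SE 0.27, adjusted p = 0.128, edgeR). It was lower in the Nrf2 eye of every mouse but mouse 3. The remaining chains lay near 0, with log2 fold changes of 0.09 for Col4a1, 0.08 for Col4a2, −0.09 for Col4a5 and 0.02 for Col4a6, and none had an adjusted p below 0.896.

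Laminins are the cross-shaped trimers on which a basement membrane assembles, and 0 of the 7 chains passed by edgeR, with 1 at an unadjusted p under 0.05 and 1 by DESeq2 at its own adjusted p. That chain was Lama4, the laminin alpha chain of vessel walls. Lama4 held 0.612, 1.54, 0.768, 2.69 and 2.05 CPM in control eyes and 2.69, 4.15, 1.2, 5.53 and 3.4 CPM in Nrf2 eyes. The Nrf2 eye was the higher one in 5 of 5 mice, yet the groups overlapped and the level was low throughout (log2 fold change 1.16, SE 0.27, adjusted p = 0.0866, edgeR). The 10 endothelial markers summed to 38.8 to 123 CPM in control and 61.7 to 133 CPM in Nrf2 eyes, with 0 called by edgeR or DESeq2 and 0 at an unadjusted p under 0.05, and their part in the Lama4 values was not tested. The other alpha chains had log2 fold changes of 0.82 (Lama1, SE 0.49), 0.32 (Lama2, SE 0.76) and 0.26 (Lama5, SE 0.16). The beta and gamma chains, which every laminin needs, lay at −0.14 (Lamb1), 0.10 (Lamb2) and 0.17 (Lamc1).

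The linkers and proteoglycans join laminin to collagen IV and bind growth factors. None of these 6 passed by edgeR, 1 had an unadjusted p under 0.05, and 1 passed by DESeq2. This was Nid2, one of the nidogens that bridge laminin and collagen IV. Nid2 held 168 ± 49.7 CPM in control and 119 ± 30.8 CPM in Nrf2 eyes (SD, n = 5), and was lower in the Nrf2 eye of 5 of 5 mice (log2 fold change −0.50, SE 0.17, adjusted p = 0.117, edgeR). Its relative Nid1 had a log2 fold change of 0.11 (SE 0.38). Values for the heparan sulfate proteoglycans were −0.07 for Hspg2 (perlecan), 0.17 for Agrn (agrin) and 0.27 for Col18a1, the source of endostatin. Slc19a1, which overlaps Col18a1 on the opposite strand, had −0.59 (adjusted p = 0.0498, edgeR), and reads of the pair cannot be told apart if the counting ignored strand. Col15a1, the relative of Col18a1, was too low for a firm value (0.80, SE 0.61).

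Collagen VIII is a short-chain collagen that forms hexagonal sheets in subendothelial matrix and in Descemet's membrane of the cornea. Of its 2 chains, Col8a2 fell and Col8a1 did not pass. Col8a2 (ENSMUSG00000056174, GRCm38 chr4:126286793-126314330, plus strand) held 2153, 1399, 1850, 2340 and 1480 CPM in the control eyes of mice 1 to 5 and 819, 539, 924, 968 and 529 CPM in the Nrf2 eyes. All Nrf2 eyes lay below all control eyes, and the 5 mice differed little in the size of the fall, from −0.96 to −1.60 on the log2 scale. The log2 fold change was −1.32 (SE 0.10, adjusted p = 0.00198, edgeR), and the call held under all 14 alternatives. RPE markers were lower in the same eyes, and 5 of the 12 had log2 fold changes below that of Col8a2: Rpe65 (−2.88), Rgr (−2.87), Lrat (−2.26), Rlbp1 (−1.93) and Rdh5 (−1.42). Otx2 fell by less (−0.63), and 6 did not pass, among them Ttr (0.00), the most abundant of the 12. The part of the RPE markers in the result was not tested.

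Col8a1 (GRCm38 chr16:57624258-57754737, minus strand) held 1222, 918, 1254, 1575 and 809 CPM in control eyes and 790, 620, 1261, 758 and 575 CPM in Nrf2 eyes. It was lower in the Nrf2 eye of 4 of 5 mice and not in mouse 3, and the groups overlapped (log2 fold change −0.56, SE 0.19, adjusted p = 0.117, edgeR).

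The promoters of both chains are shown as those of the 2 chains of 1 collagen, of which 1 passed the test. Each window runs from 250 bases before to 50 bases after the annotated start (RefSeq, GRCm38.p6), and capitals mark GC boxes (GGGCGG on either strand, so CCGCCC where it lies on the other strand). The Col8a2 window is chr4:126286544-126286843 on the plus strand and the Col8a1 window is chr16:57754688-57754987 on the minus strand. Each held 4 GC boxes, of which a pair overlaps in Col8a2, and neither held the core of the antioxidant response element (TGACNNNGC, both strands).
Col8a2: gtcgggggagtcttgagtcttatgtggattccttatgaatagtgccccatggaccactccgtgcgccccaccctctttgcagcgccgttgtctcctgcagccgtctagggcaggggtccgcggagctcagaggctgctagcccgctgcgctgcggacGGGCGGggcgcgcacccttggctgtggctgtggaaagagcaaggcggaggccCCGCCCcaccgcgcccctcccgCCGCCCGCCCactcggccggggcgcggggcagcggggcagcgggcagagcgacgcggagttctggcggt
Col8a1: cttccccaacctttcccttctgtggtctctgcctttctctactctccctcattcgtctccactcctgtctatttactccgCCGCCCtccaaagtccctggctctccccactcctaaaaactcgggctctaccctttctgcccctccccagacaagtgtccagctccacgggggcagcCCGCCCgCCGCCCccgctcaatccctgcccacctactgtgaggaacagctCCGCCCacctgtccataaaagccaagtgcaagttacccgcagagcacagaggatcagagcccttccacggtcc

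Elastic fiber genes build the elastic layer of Bruch's membrane, and 0 of 5 passed by edgeR, with 2 at an unadjusted p under 0.05 and 1 by DESeq2. That gene was Fbln5, which tethers elastin to microfibrils and to cells. Fbln5 held 163, 147, 182, 161 and 110 CPM in control eyes and 63.2, 74.4, 120, 95.1 and 119 CPM in Nrf2 eyes. The Nrf2 eyes were lower in 4 of 5 mice, and mouse 5 had the lowest control eye and no difference (log2 fold change −0.74, SE 0.22, adjusted p = 0.0661, edgeR). Without mouse 5 the value was −0.92 with an adjusted p of 0.0205, and with no filter on low counts the adjusted p was 0.0327. Fbn1, the microfibril backbone, had −0.52 (SE 0.26, adjusted p = 0.239, edgeR). Positive values that did not pass were those of Eln, elastin itself, at 0.36 (SE 0.39), Fbln1, a basement membrane and elastic fiber protein, at 0.45 (SE 0.34), and Efemp1, the fibulin altered in Malattia Leventinese, at 0.13 (SE 0.14). Efemp1 held 175 ± 34.2 CPM in control and 193 ± 31.7 CPM in Nrf2 eyes (SD, n = 5).

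The fibrillar and interstitial genes, which encode the collagens of the collagenous layers and stroma together with fibronectin, gave 0 calls of 7 by edgeR, 0 at an unadjusted p under 0.05 and 0 by DESeq2. Log2 fold changes ran from −0.32 to 0.36, with 0.16 for Col1a1, 0.17 for Col1a2, 0.30 for Col3a1, 0.36 for Col5a1, −0.32 for Col6a1, 0.06 for Col6a2 and −0.08 for Fn1. Their standard errors ran from 0.31 (Col1a2) to 0.85 (Col1a1), and that of each gene exceeded the size of its log2 fold change. These values thus do not show a lack of change. Col1a1 held 176, 36.8, 14, 22.7 and 83.8 CPM in control eyes and 24.4, 40.1, 23.7, 136 and 85.5 CPM in Nrf2 eyes. The highest control eye was that of mouse 1 and the highest Nrf2 eye that of mouse 4, and in each case the other eye of that mouse was among the low ones.

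Markers of pericytes and smooth muscle were read in the same eyes as these genes. Their summed level over 10 genes was 1610, 606, 293, 310 and 765 CPM in control eyes and 279, 455, 429, 1285 and 608 CPM in Nrf2 eyes. The summed fibrillar level was 368, 178, 120, 135 and 243 CPM in control eyes and 141, 214, 124, 371 and 256 CPM in Nrf2 eyes. Both sums were highest in the control eye of mouse 1 and the Nrf2 eye of mouse 4, while mice 2 and 5 had less marker and slightly more fibrillar RNA in the Nrf2 eye. The smooth muscle genes Acta2 and Myh11 held most of the marker sum, with 362 and 178 of 717 CPM on average in control eyes. Among the 10 markers 1 was called lower, Kcnj8 (log2 fold change −2.60, adjusted p = 0.000286, edgeR). Kcnj8 and Cspg4 were lower in the Nrf2 eye of 5 of 5 mice. In mouse 4 Kcnj8, Cspg4 and Rgs5 were lower in the Nrf2 eye, while Pdgfrb and Abcc9 were higher. Of 8 fibroblast markers, chosen outside the matrix lists, 5 were tested, with 0 called by edgeR or DESeq2 and 0 at an unadjusted p under 0.05. The sums of the 8 were 432 to 570 CPM in control and 447 to 938 CPM in Nrf2 eyes. These sums were mostly Gpc3, which held 428 CPM on average in control and 555 CPM in Nrf2 eyes. Twist2 and Clec3b were near 0. The part of these cells in the result was not tested.

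**Figure D3:**
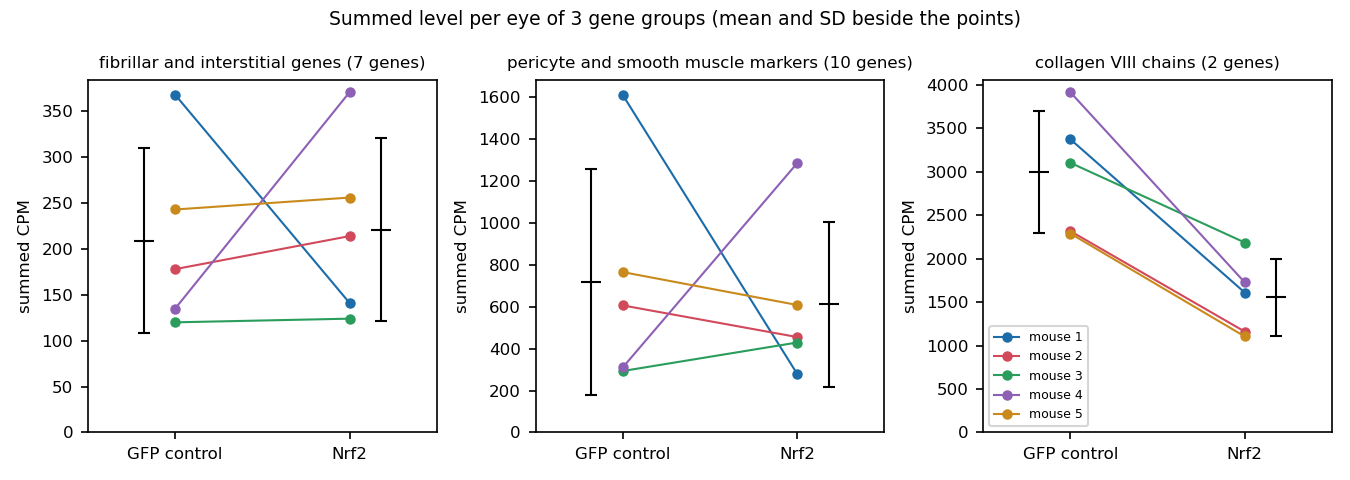
Summed CPM of the fibrillar and interstitial genes, of the pericyte and smooth muscle markers and of the collagen VIII chains in each eye, with a line joining the eyes of a mouse and bars giving the mean ± SD (n = 5). The lines cross in the first and second panels, where mice 1 and 4 move furthest in opposite directions, and run down in all 5 mice in the third, from 2289 to 3915 CPM in control eyes to 1104 to 2185 CPM in Nrf2 eyes.

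Matrix proteases and their inhibitors gave 1 call of 6, a fall of Timp3. Timp3 is the matrix-bound inhibitor of metalloproteinases that RPE cells deposit in Bruch's membrane, and it is the gene altered in Sorsby fundus dystrophy. Timp3 (ENSMUSG00000020044, GRCm38 chr10:86300372-86349506, plus strand) held 4622, 2875, 3940, 4248 and 2963 CPM in control eyes and 1248, 982, 2372, 2316 and 1627 CPM in Nrf2 eyes. The groups did not overlap, and the fall was largest in mice 1 and 2. The log2 fold change was −1.20 (SE 0.21, adjusted p = 0.0153, edgeR). The same 5 RPE markers, at −1.42 to −2.88, had log2 fold changes below that of Timp3, and their part was not tested. The call was lost without mouse 2 (−1.07, adjusted p = 0.0697) and with rod markers as a covariate (−1.28, adjusted p = 0.0552). Syn3, which lies over Timp3 on the opposite strand, held 2.34 to 6.83 CPM, far less than Timp3.

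The Timp3 promoter is shown because Timp3 passed the test, and its window is chr10:86300162-86300461 on the plus strand (RefSeq, GRCm38.p6). It held 2 GC boxes, in capitals, and no antioxidant response element core.
Timp3: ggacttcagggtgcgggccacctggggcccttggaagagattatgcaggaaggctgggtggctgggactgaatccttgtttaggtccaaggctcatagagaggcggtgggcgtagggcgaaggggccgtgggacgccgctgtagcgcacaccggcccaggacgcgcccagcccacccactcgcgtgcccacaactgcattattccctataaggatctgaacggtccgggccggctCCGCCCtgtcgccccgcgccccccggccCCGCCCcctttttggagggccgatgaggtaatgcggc

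Timp2, the soluble relative of Timp3, held 923, 718, 767, 766 and 579 CPM in control eyes and 710, 709, 993, 1160 and 980 CPM in Nrf2 eyes, which overlapped (log2 fold change 0.25, SE 0.18, adjusted p = 0.514, edgeR). Timp1, the inducible inhibitor, was low at 1.88 ± 0.439 CPM in control and 3.67 ± 1.58 CPM in Nrf2 eyes (0.87, SE 0.34, adjusted p = 0.226, edgeR). Htra1, a secreted serine protease at a locus linked to macular degeneration, held 215, 137, 111, 100 and 95.3 CPM in control eyes and 174, 239, 228, 287 and 275 CPM in Nrf2 eyes. The Nrf2 eye was the higher in 4 of 5 mice and mouse 1 went the other way (0.91, SE 0.31, adjusted p = 0.0878, edgeR). Htra1 passed without mouse 1 (1.22, adjusted p = 0.00934) and with no filter on low counts (adjusted p = 0.0396). Fgfr2, which overlaps Htra1 on the opposite strand, fell by 0.92 on the log2 scale (adjusted p = 0.00654, edgeR), and reads of the pair cannot be told apart if the counting ignored strand. The gelatinase Mmp2 had 0.85 (SE 0.31, adjusted p = 0.164, edgeR) and passed without mouse 1 (1.17, adjusted p = 0.0371). Mmp14, the membrane protease that activates Mmp2, had 0.08 (SE 0.15).

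Among the matricellular and heparan sulfate editing genes 1 of 3 rose. Sulf2 encodes a secreted sulfatase that removes 6-O-sulfate groups from heparan sulfate outside the cell. Sulf2 (ENSMUSG00000006800, GRCm38 chr2:166073089-166155663, minus strand) held 34.3, 18.4, 14.9, 8.84 and 13.4 CPM in control eyes and 55.4, 76, 62.5, 82.8 and 74.9 CPM in Nrf2 eyes. Every Nrf2 eye lay above every control eye, and mouse 1, with the highest control and the lowest Nrf2 eye, had the smallest difference, 0.76 on the log2 scale, where the other mice had 2.02 to 3.15. The log2 fold change was 2.08 (SE 0.39, adjusted p = 0.00981, edgeR), and the call held under all 14 alternatives. In the same eyes 8 of 10 markers of macrophages and microglia rose, by 2.10 to 5.90 on the log2 scale. The part of those cells in the Sulf2 values was not tested. Ncoa3, which overlaps Sulf2 on the opposite strand, held 15.2 to 40.6 CPM and had 0.07 on the same scale. Its relative Sulf1, the more abundant enzyme in control eyes per length (35.0 against 3.06 CPM per kb), had 0.27 (SE 0.15, adjusted p = 0.361, edgeR). Sparc, a collagen-binding protein of basement membranes, had 0.44 (SE 0.27, adjusted p = 0.361, edgeR).

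The promoters of Sulf2 are shown as those of the only matrix gene of the 42 that rose under edgeR. RefSeq gives 2 starts, with windows at chr2:166155634-166155933 and chr2:166155236-166155535 on the minus strand (GRCm38.p6). The upstream window held 1 GC box, in capitals, the other none, and neither held an antioxidant response element core.
Sulf2 upstream start: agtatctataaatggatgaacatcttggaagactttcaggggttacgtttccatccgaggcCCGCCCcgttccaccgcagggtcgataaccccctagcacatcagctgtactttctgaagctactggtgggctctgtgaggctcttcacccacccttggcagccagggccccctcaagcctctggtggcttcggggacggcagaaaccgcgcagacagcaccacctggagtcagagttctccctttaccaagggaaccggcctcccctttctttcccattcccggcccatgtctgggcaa
Sulf2 downstream start: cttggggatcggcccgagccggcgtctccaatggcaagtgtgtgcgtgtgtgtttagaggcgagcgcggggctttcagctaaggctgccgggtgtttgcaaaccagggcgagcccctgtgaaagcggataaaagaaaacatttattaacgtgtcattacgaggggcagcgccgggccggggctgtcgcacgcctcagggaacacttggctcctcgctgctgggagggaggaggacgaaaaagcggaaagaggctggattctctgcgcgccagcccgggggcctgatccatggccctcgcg

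**Figure D4:**
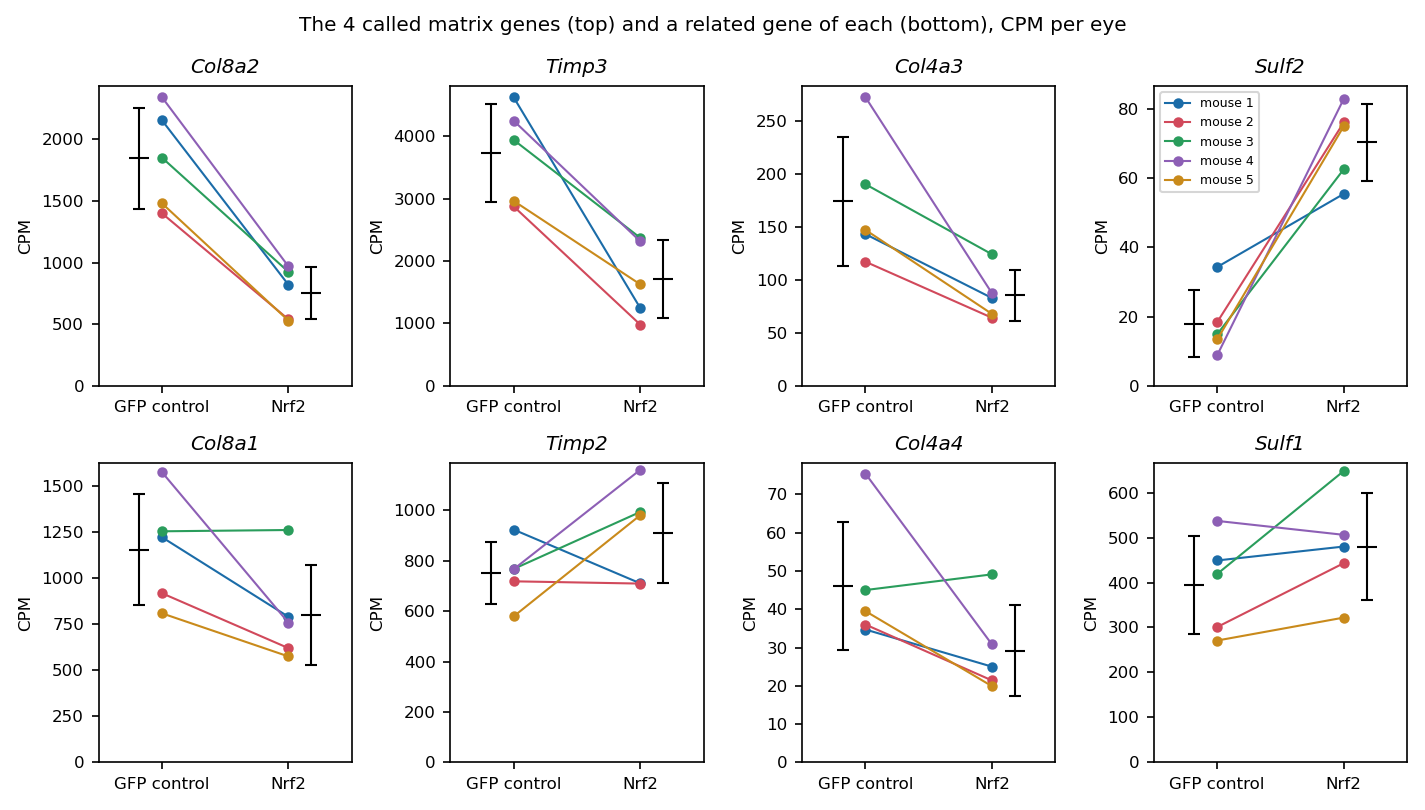
CPM in each eye for the 4 genes that passed (top row) and a related gene of each (bottom row), with a line joining the eyes of a mouse and bars giving the mean ± SD (n = 5). Col8a2 and Timp3 separate the eyes completely downward and Sulf2 upward, Col4a3 runs down in all 5 mice with overlap, and the related genes run less uniformly.

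The called genes were set beside related genes within each mouse. The difference between the 2 log2 changes was −0.76 for Col8a2 against Col8a1 (SE 0.14), −1.45 for Timp3 against Timp2 (SE 0.09), −0.33 for Col4a3 against Col4a4 (SE 0.11) and 1.81 for Sulf2 against Sulf1 (SE 0.45). Each of these 4 had 1 sign in 5 of 5 mice. The exact sign-flip permutation test over 5 mice, two-sided, gave p = 0.0625 for each, the smallest it allows, and 0.0781 after adjustment over the 5 pairs compared. For Col4a3 against Col4a5 the difference was −0.93 (SE 0.49), with 4 of 5 mice on 1 side (exact p = 0.1875, adjusted p = 0.188). The pairs were chosen after the values of the called genes were known, so these are descriptions of how unequal the changes were.

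Each matrix group held 0 or 1 called gene, beside 6.33% of all genes tested. The count was 1 of 19 for basement membrane (median log2 fold change 0.10), 1 of 2 for collagen VIII (−0.94), 0 of 5 for elastic fibers (0.13) and 0 of 7 for fibrillar matrix (0.16). Proteases and inhibitors had 1 of 6 (0.55) and the matricellular group 1 of 3 (0.44). No test of one group against another was made.

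The balance of higher and lower matrix genes varied from mouse to mouse. In mice 1 to 5 the Nrf2 eye was the higher for 8, 20, 33, 30 and 26 of the 42 genes, with median log2 differences of −0.43, −0.02, 0.38, 0.63 and 0.17. Over all genes tested the share higher in the Nrf2 eye was 49.0%, 46.2%, 54.1%, 51.9% and 42.9%. In mouse 1 all 6 collagen IV chains and all 6 proteases and inhibitors were lower and the fibrillar median was −1.84, while 2 of the 3 matricellular genes were higher. In mouse 4 all 7 laminin chains were higher and the fibrillar median was 1.17, while the elastic median was −0.39 and both collagen VIII chains were lower. The collagen VIII medians were negative in all 5 mice, from −0.46 to −1.23. The summed level of 10 skeletal muscle markers was also down in mice 1 and 2 and up in the others, with log2 ratios of −3.23, −1.48, 2.09, 1.37 and 3.33 in mice 1 to 5. Their part in the matrix values was not tested.

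The other genes of the matrix pathway were read from 191 genes, of which 163 were tested. Of the 163, 18 (11%) were called, 13 higher and 5 lower, beside 6.33% of all genes tested (3.60% higher and 2.73% lower). The median log2 fold change of the 163 was 0.16. Among other collagen and laminin chains 1 of 25 was called by edgeR and 5 by DESeq2, which called 9.25% of all genes it tested. Col6a3, the third chain of collagen VI, rose from 3.08 ± 1.79 to 17.7 ± 6.66 CPM (SD, n = 5) without overlap (log2 fold change 2.56, adjusted p = 0.00177, edgeR), while its partners Col6a1 and Col6a2 among the 42 did not pass.

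Of 27 tested collagen folding, modifying and crosslinking enzymes, 2 rose and 1 fell by edgeR, and DESeq2 called 8 genes of this list. Plod3, a lysyl hydroxylase, rose by 0.70 (adjusted p = 0.0381) and P3h4, a protein of the endoplasmic reticulum that takes part in collagen modification, by 0.54 (adjusted p = 0.0447), whereas Loxl4, a crosslinking lysyl oxidase, changed by −1.18 (adjusted p = 0.0102, edgeR). None of 18 further elastic fiber and microfibril genes passed by edgeR, while 4 had an unadjusted p under 0.05 and 2 passed by DESeq2. The proteoglycan and matricellular list gave 2 higher and 2 lower of 37 by edgeR, and 8 calls by DESeq2. Spp1 (osteopontin, 3.16) and Comp (3.11) rose, and Thbs4 (−1.21) and Smoc1 (−0.81) fell.

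Other proteases and inhibitors gave 6 higher and 0 lower of 31 tested by edgeR, and 7 calls by DESeq2. Mmp9, a gelatinase of leukocytes, rose from 0.685 to 14.3 CPM (log2 fold change 5.11), the lysosomal protease Ctss from 12.9 to 231 CPM (3.98) and the stromelysin Mmp3 from 0.616 to 10.1 CPM (3.81), with adjusted p of 0.00875, 0.000979 and 0.00782 (edgeR). Ctss and Spp1 are also made by macrophages, of whose markers 8 of 10 rose in the same eyes, by 2.10 to 5.90 on the log2 scale, and the part of those cells was not tested. Matrix receptors gave 2 higher, Itga8 (2.82) and Bcam (0.38), and 2 lower, Itgav (−1.23) and Itgb8 (−1.09), of 25 by edgeR, and 6 calls by DESeq2. Itgav and Itgb8 encode the subunits of 1 integrin that activates latent TGF-beta. Calls of Col6a3, Mmp9, Ctss and Mmp3 held under all 14 alternatives, and that of Comp under the 13 that kept the gene. The others were lost in some, namely 7 of 13 for Itga8 and, of 14, 10 for Bcam, 9 for P3h4, 7 for Plod3, 6 for Itgav, 5 for Spp1, 4 each for Smoc1 and Itgb8, 2 for Loxl4 and 1 for Thbs4. Without the mouse block the adjusted p was 0.0598 for Loxl4 and 0.0913 for Thbs4, and with rod markers as a covariate it was 0.0552 for Loxl4. Over the 14 alternatives the log2 fold change ran from −1.28 to −1.05 for Loxl4, from −1.39 to −1.02 for Thbs4 and from 0.35 to 0.45 for Bcam. With 1 mouse left out the highest adjusted p was 0.133 for Bcam (without mouse 5), 0.113 for Plod3 (mouse 5), 0.154 for P3h4 (mouse 2), 0.123 for Spp1 (mouse 4), 0.0585 for Smoc1 (mouse 2), 0.111 for Itga8 (mouse 4), 0.111 for Itgav (mouse 5) and 0.0663 for Itgb8 (mouse 2).

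**Figure D5:**
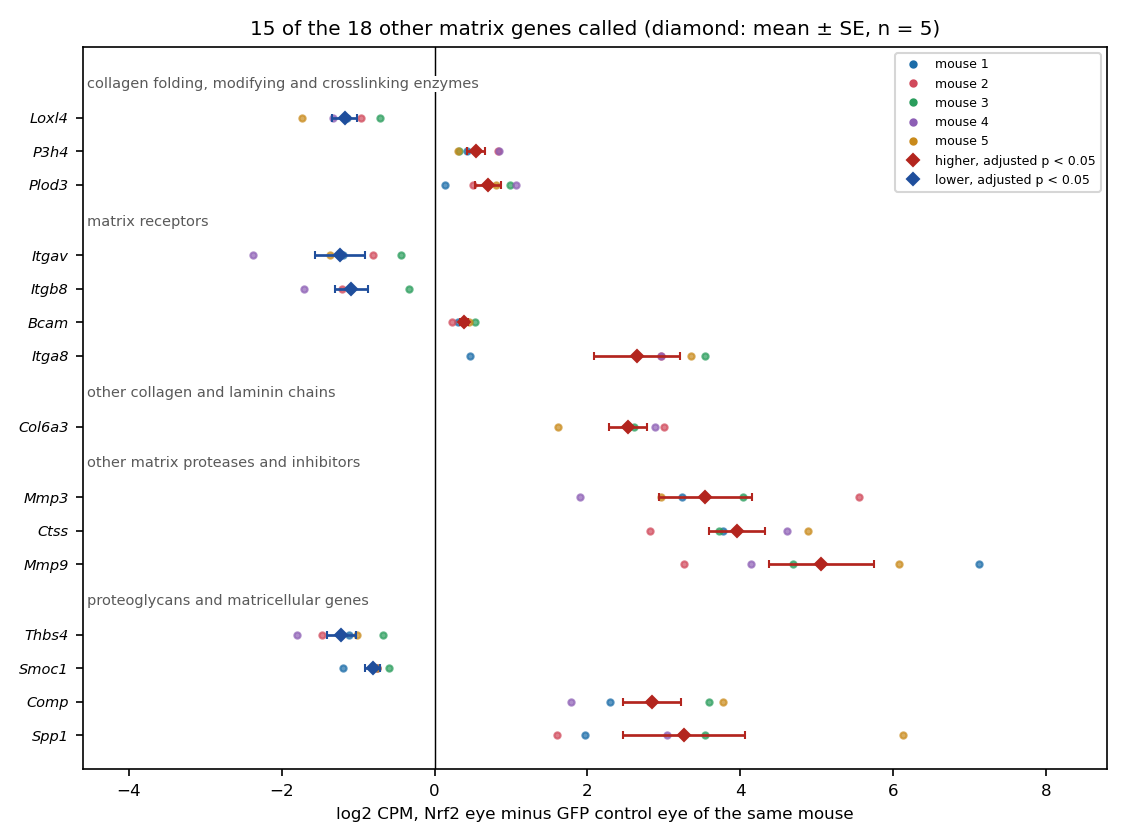
Within-mouse log2 CPM differences, Nrf2 eye minus control eye, for the 15 called matrix genes outside the 42 that the text names, with 1 point a mouse and diamonds giving the mean ± SE (n = 5). Itgav, Itgb8, Loxl4, Thbs4 and Smoc1 lie below 0 in all 5 mice, and the proteases Mmp9, Ctss and Mmp3 lie furthest above it.

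Promoter windows were found for 32 of the 42 genes. The antioxidant response element core, TGACNNNGC on either strand, lay in 4 of their 38 windows, those of Col4a2, Col6a2, Htra1 and Timp2, none of which passed edgeR's test, and in 12.4% of 32851 mouse promoter windows. The GC box, GGGCGG on either strand, lay in 28 of the 38 windows and in 35.7% of all windows. The median GC content of all windows was 52.7%, and the windows printed here held 58% to 71.7%. The part of GC content in the GC box shares was not tested. A match of letters is not a bound site, and these windows hold no distal elements.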

How the data were processed

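Eyecups of 5 CD1 mice, without retina and trimmed of connective tissue, were put into an RNA-preserving solution. The RNA was purified from the supernatant of that solution, and the study's methods call it RPE RNA. It was amplified with the Ultra Low v4 kit and sequenced in a pair of runs that the labels do not assign to libraries. The authors deposited a table of raw counts per Ensembl gene (unit counts, not normalized). Per the study's methods, reads were aligned with STAR to mm10 and counted with featureCounts under bcbio-nextgen, and Salmon (0.8.2, per the submitters' processing notes) was run in parallel. Which of them made the deposited counts, the strand setting and the filters are not given in the sources used here, so genes that overlap on opposite strands are named beside the results. Amplified reads without molecular identifiers are not independent molecules.

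Gene IDs were matched to GENCODE M21 (GRCm38), and 47310 of 47729 (99.1%) had a match; 15729 genes had no count in any library. Genes were filtered with filterByExpr, scaled by TMM and tested by edgeR's (4.0.16, R 4.3.3) quasi-likelihood method, with each mouse as its own block, since the study paired the eyes of a mouse, over 16362 genes at an adjusted p of 0.05. DESeq2 1.42.0 was an alternative. CPM used plain library totals. Log2 differences within a mouse used TMM-scaled CPM with a prior count of 2, and each SE is that of the mean of 5 within-mouse differences. The fitted log2 fold change can differ slightly from their mean. Levels between genes were compared as CPM per kb of union exons. The replicate number is the labels' number of the animal. Deviations of same-numbered eyes correlated at 0.19 to 0.71, and eyes of different mice at −0.42 to 0.28 (median −0.08), and 3 of the 5 same-mouse values lay under the highest between mice.

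The 42 genes, the other matrix lists and the marker lists were chosen with earlier results of these data known. By rule, all 42 genes are named, and of each other list the 3 largest rises and 3 largest falls among called genes. Marker lists are given as sums and counts, with some genes named. Those with 0 called by edgeR, and 0 at an unadjusted p under 0.05 or by DESeq2, were fibroblasts and endothelium (given with the results), skeletal muscle (58.3 to 114 CPM in control and 11.1 to 686 in Nrf2 eyes) and rods. Mueller glia markers (3977 to 7250 and 3713 to 6133) had 0 called by edgeR, 1 at an unadjusted p under 0.05 and 1 by DESeq2. Scleral and tendon markers had 1 of 5 called, Chad (log2 fold change 2.78), with sums of 242 to 361 and 220 to 325. Schwann cell and melanocyte markers had 1 of 6, Sox10 (−1.74), with sums of 402 to 605 and 392 to 710. The scleral sum was mostly Sox9 and the Mueller glia sum mostly Apoe (280 and 5397 CPM on average in control eyes). Promoter sequences are from RefSeq (GRCm38.p6). A promoter of Col4a3 and protein sequences were not used here. Alternatives were no block, DESeq2, another scaling, other count filters, equal depth, leaving out each mouse, and rod, fibroblast or endothelial markers as a covariate.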

Additional observations from a re-analysis of the deposited data

Results flagged for a closer look

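In the 84 sets of 5 eyes formed by 42 matrix genes and 2 groups, 3 held an eye far from the others by Dixon's ratio of the gap to the range, above the critical value of 0.71. Chance flags about 1 in 20 groups, 4.2 here. Col4a5 was high in the control eye of mouse 1, at a log2 CPM of 6.76 where the other control eyes had 6.18 to 6.34 (ratio 0.721). Col15a1 was low in the Nrf2 eye of mouse 1, at −2.03 against −0.48 to −0.12 (ratio 0.813), a difference that rests on 3 counts in that eye and 8 to 17 in the others. Fn1 was low in the control eye of mouse 4, at 3.12 against 5.21 to 5.71 (ratio 0.808). None of these 3 genes passed edgeR's test between the eyes, and their log2 fold changes were −0.09, 0.80 and −0.08. The cause of these values was not tested.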

How the results depend on the processing

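The calls of Col8a2 and Sulf2 held under all 14 alternatives. Col4a3 lost its call without the mouse block (adjusted p = 0.0566, edgeR) and Timp3 with rod markers as a covariate (0.0552). Without mouse 2 both were lost, and without mouse 5 Col4a3 was. Of the 42 genes 25 kept their sign under every alternative that gave them a value and 17 did not. The minimum mean of 50 counts gave none for Lama1, Lama4 and Col15a1, and equal depth none for Col15a1. The eyes are paired by animal. Without the mouse block 3 matrix genes and 755 genes in all were called, and the basement membrane count was 0; it changed no other call among the 42.

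DESeq2 with the block called 1812 genes in all, 10 matrix genes, 4 of the basement membrane, 2 of collagen VIII, 1 elastic, 2 proteases or inhibitors and 36 other matrix genes. With no filter on low counts there were 1 elastic gene and 2 proteases or inhibitors. With rod markers as a covariate 503 genes in all, 0 proteases or inhibitors and 6 other matrix genes were called; with fibroblast markers 613 and 10. With endothelial markers 2 basement membrane and 2 collagen VIII genes were called. Leaving out each mouse gave 584 to 857 genes in all, 2 to 6 matrix genes, 0 to 1 of the basement membrane, 0 to 1 elastic, 0 to 3 proteases or inhibitors and 9 to 20 other matrix genes. The 2 matrix genes were Col8a2 and Sulf2, without mouse 2.

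The median over the 42 genes ran from −0.0025 (without mouse 4) to 0.34 and was −0.10 with rod markers. Signs turned, none of them at a called gene, as follows (log2 fold changes). Without the block Col1a1 had −0.14 and Col6a2 −0.04. With rod markers the values were −0.11 for Col4a1, −0.23 for Col4a2, −0.32 for Col4a6, −0.39 for Lama2, −0.03 for Lamb2, −0.02 for Nid1, −0.73 for Col1a1, −0.11 for Col1a2, −0.15 for Col3a1, −0.52 for Col6a2 and −0.10 for Mmp14. With fibroblast markers they were −0.09 for Col4a1, −0.08 for Col4a2, −0.12 for Col4a6, −0.01 for Nid1, −0.26 for Col1a1, −0.30 for Col6a2 and 0.02 for Fn1. With endothelial markers they were 0.01 for Col4a5, 0.06 for Hspg2 and 0.49 for Fn1. Leaving out 1 mouse gave −0.03 to 0.29 for Col4a1, −0.11 to 0.33 for Col4a2, −0.27 to 0.22 for Col4a5, −0.20 to 0.38 for Col4a6, −0.21 to 0.91 for Lama2, −0.24 to 0.09 for Lamb1, −0.06 to 0.44 for Nid1, −0.13 to 0.13 for Hspg2, −0.38 to 0.83 for Col1a1, −0.03 to 0.67 for Col5a1, −0.66 to 0.23 for Col6a1, −0.22 to 0.67 for Col6a2, −0.54 to 0.45 for Fn1 and −0.04 to 0.17 for Mmp14. The cause was not tested. A gene near the 3-count floor of 0.110 to 0.244 CPM, such as Col15a1, cannot show a moderate change at this depth.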
